A study of Mus musculus with 4 samples.

Results

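The 9 long noncoding RNA genes described here, called the members below, were followed through mouse preimplantation development: the nuclear RNAs Malat1 and Neat1 and the small nucleolar RNA (snoRNA) host genes Gas5, Snhg1, Snhg3, Snhg5, Snhg6, Snhg8 and Snhg12. They were taken from a list of symbols, drawn up with earlier results of these data known. All 9 of the 9 symbols were found among the 20171 genes of the table. They held 112 of its 68012 isoforms. Single cells were read as full-length polyA cDNA on the PacBio platform with HIT-scISOseq, a method that joins several cDNA molecules into 1 long read and tags each molecule with a cell barcode and a unique molecular identifier (UMI). The 161 cells were MII oocytes, zygotes, blastomeres of early 2-cell (E2C) and late 2-cell (L2C) embryos and of embryos with 4, 8, 16 or 32 cells, cells of blastocysts, and cultured mouse embryonic stem cells (mESC). C57BL/6J females of 6 to 8 weeks were mated with DBA/2NCrl males, while the sample records give the strain as DBA/2J x C57BL/6J and no genetic change is named in the labels. Oocytes were taken at 20 h after hCG, zygotes at 22 to 24 h, E2C at 30 to 32 h, L2C at 46 to 48 h, 4-cell embryos at 54 to 56 h, 8-cell embryos at 68 to 70 h, 16-cell and 32-cell embryos at 78 to 80 h and blastocysts at 88 to 90 h.

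Each oocyte, zygote or embryo counted as 1 replicate. There were 10 oocytes and 9 zygotes, then 5 embryos at E2C, 6 at L2C, 5 at the 4-cell stage and 4 each at the 8-cell and 16-cell stages, with 121 cells in all. Values are copies per 100,000 UMIs of a cell, averaged over the cells of an embryo. They are shares of the polyA RNA read from a cell, not copies per cell. The 22 32-cell, 13 blastocyst and 5 mESC cells carry no embryo number and are described by range and median, without a test. Depth differed with stage: the median cell held 195671 UMIs in oocytes and 246466 in zygotes but between 32466 and 34773 from the 4-cell to the 32-cell stage, so that 1 UMI stands for 0.511 copies in a median oocyte and 3.08 in a median 4-cell blastomere. L2C embryo 1 was a single cell of 17971 UMIs. Oocyte markers summed to between 1820 and 2888 copies in oocytes, 4 markers of the 2-cell stage had their highest medians in E2C, L2C and 4-cell blastomeres (6.70, 7.84 and 9.95 copies), and the 3 of 6 cumulus cell markers that the table holds reached at most 9.81 copies in an oocyte.

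Malat1 is a long nuclear RNA that gathers in nuclear speckles, bodies rich in splicing factors, and Neat1 is the RNA scaffold on which paraspeckles are built. Small nucleolar RNA host genes carry their product in their introns: C/D box snoRNAs guide the methylation of ribosomal RNA, and H/ACA box snoRNAs guide its pseudouridylation. The spliced exons that remain are long noncoding RNAs, many of which start at a run of pyrimidines like messenger RNAs of ribosomal proteins and are removed by nonsense-mediated decay when they are translated. The cDNA measured here shows the spliced host RNA and not the mature snoRNAs, which have no polyA tail. GENCODE vM21 places 29 snoRNA records inside the 7 hosts and none in Malat1 or Neat1. Of these, 10 lie in Gas5, 8 in Snhg1, 5 in Snhg12, 2 each in Snhg3 and Snhg5 and 1 each in Snhg6 and Snhg8. The label of the set thus held at the level of the annotation, but nuclear position was not measured.

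In mm10, Malat1 lies at chr19:5795690-5802672 and Neat1 at chr19:5824708-5845478, both on the minus strand. Gas5 lies at chr1:161034422-161038539 (plus), Snhg1 at chr19:8723475-8726443 (plus), Snhg3 at chr4:132348014-132353686 (minus) and Snhg5 at chr9:88521050-88522929 (minus). Snhg6 lies at chr1:9941959-9944118 (minus), Snhg8 at chr3:123507552-123508404 (minus) and Snhg12 at chr4:132308623-132311024 (plus). Snhg3 overlaps the gene Rcc1 on its own strand. Gas5, Snhg6, Malat1 and Snhg3 overlap Zbtb37, Mcmdc2, Gm37376 and Gm17300 on the opposite strand.

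The start windows of the members are shown because the isoforms of Gas5 differed in their first exon between stages and RefSeq gives that gene 2 starts. Each is 50 bases on the strand of the gene, 20 before the start site and 30 from it on, from RefSeq on GRCm38.p6. Capitals mark the longest run of C and T that covers the start or has a base within 5 bases of it. RefSeq windows were matched for 7 members, with 2 for Gas5. Neat1 and Snhg6 had none.
Gas5 upstream start, chr1:161034581-161034630: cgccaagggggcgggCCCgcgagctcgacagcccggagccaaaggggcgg
Gas5 downstream start, chr1:161035146-161035195: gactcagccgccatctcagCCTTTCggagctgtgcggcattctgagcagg
Snhg1, chr19:8723467-8723516: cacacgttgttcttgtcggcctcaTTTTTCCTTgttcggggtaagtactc
Snhg3, chr4:132353657-132353706: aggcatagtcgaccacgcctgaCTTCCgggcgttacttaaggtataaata
Snhg5, chr9:88522868-88522917: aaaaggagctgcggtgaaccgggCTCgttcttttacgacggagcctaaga
Snhg8, chr3:123508307-123508356: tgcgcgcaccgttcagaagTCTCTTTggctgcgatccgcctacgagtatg
Snhg12, chr4:132308658-132308707: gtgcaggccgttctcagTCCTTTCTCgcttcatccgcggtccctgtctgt
Malat1, chr19:5802643-5802692: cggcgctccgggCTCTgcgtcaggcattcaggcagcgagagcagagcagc
The run was 6 or more bases long in 4 of the 8 windows: 6 at the downstream start of Gas5, 7 in Snhg8 and 9 in both Snhg1 and Snhg12. Of all 32851 RefSeq promoters, 21.0% held such a run, as did 44.6% of the 74 promoters of ribosomal protein genes. It was 5 in Snhg3, 4 in Malat1 and 3 in Snhg5 and at the upstream start of Gas5. Most UMIs of these genes belong to isoforms whose listed start lies elsewhere. Isoforms with a listed start within 10 bases of the RefSeq start hold 46 (upstream) and 625 (downstream) of 2867 UMIs of Gas5. They hold 27 of 663 UMIs of Snhg1, 27 of 181 of Snhg8 and 0 of 124 of Snhg12. A listed start belongs to a whole isoform, into which the authors collapsed their mapped reads, and where each molecule began was not measured. These counts thus cannot show how many molecules began at the RefSeq start.

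A set of 5 snoRNAs is shown because their hosts, Gas5, Snhg3, Snhg6 and Snhg8, carry the changes described below. Sequences are from GENCODE vM21, written as DNA, with the C box (TGATGA) and D box (CTGA) of C/D snoRNAs and the ACA box near the 3′ end of H/ACA snoRNAs in capitals.
Snord47 of Gas5, chr1:161038082-161038158: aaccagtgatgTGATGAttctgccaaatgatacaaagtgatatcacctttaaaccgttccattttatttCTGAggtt
Snora73a of Snhg3, chr4:132352775-132352979: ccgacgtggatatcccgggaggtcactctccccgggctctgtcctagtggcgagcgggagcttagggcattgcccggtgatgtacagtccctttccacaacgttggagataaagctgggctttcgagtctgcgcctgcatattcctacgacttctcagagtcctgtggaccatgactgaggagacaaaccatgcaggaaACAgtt
Snora73b of Snhg3, chr4:132352322-132352526: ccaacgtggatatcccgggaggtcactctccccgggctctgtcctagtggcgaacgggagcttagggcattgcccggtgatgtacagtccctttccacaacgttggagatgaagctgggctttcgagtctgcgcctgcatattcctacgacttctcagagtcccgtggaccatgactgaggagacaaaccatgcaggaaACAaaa
Snord87 of Snhg6, chr1:9942463-9942549: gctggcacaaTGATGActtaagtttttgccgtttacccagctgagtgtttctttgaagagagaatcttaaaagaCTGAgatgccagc
Snora24 of Snhg8, chr3:123507937-123508066: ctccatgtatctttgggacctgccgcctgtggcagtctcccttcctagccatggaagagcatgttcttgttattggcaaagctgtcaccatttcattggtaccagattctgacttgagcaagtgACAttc
The 2 snoRNAs of Snhg3, both 205 bases long, have the same base at 198 positions and differ at 7.

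The 7 hosts were low in oocytes and zygotes. From E2C to L2C, the interval of major zygotic genome activation, 4 of the 9 members rose: Gas5, Snhg3, Snhg6 and Snhg12. A gene is called risen or fallen here when limma, fitted to log2(copies + 1) of all 43 oocytes, zygotes and embryos, gave an unadjusted p under 0.01 and a log2 change beyond 1 or -1. The share of all 11682 tested genes called higher in the same interval was 25.6%, and 48.4% were called in either direction. The median log2 change of the 9 members was 0.67, against 0.027 over all genes tested. No member fell. Adjusted p-values below are Benjamini-Hochberg values over all genes tested.

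Gas5, whose introns give 10 small RNA records and whose spliced RNA accumulates in growth-arrested cells, was found at 7.09, 14.3, 24.6, 12.2 and 10.9 copies in the 5 E2C embryos. The 6 L2C embryos held between 27.8 and 50.1 copies, with a median of 34.1. Every L2C embryo lay above every E2C embryo, and both blastomeres of the L2C embryos with 2 cells held Gas5. The mean moved from 13.8 ± 6.59 (SD, n = 5) to 37.0 ± 9.19 copies (SD, n = 6), a log2 change of 1.48 (SE 0.35, limma adjusted p = 0.000247). With edgeR and DESeq2 on the recovered UMIs the change was 0.89 and 0.78, below the limit for a call.

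Snhg3, the host of the 2 Snora73 copies shown above, was found at 0, 1.58, 2.44, 0 and 1.61 copies in the E2C embryos. In the L2C embryos it ranged from 3.08 to 17.8 copies, with a median of 9.71. Here too no L2C embryo fell within the E2C range. The log2 change was 2.34 (SE 0.45, limma adjusted p = 9.32e-06), the largest among the members in this interval. Rcc1, which shares its strand and part of its locus, had a log2 change of 0.43 (SE 0.38, limma adjusted p = 0.332).

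Snhg6, the host of Snord87, was found at 1.75, 1.24, 1.49, 1.03 and 2.70 copies in the E2C embryos and at 4.97 to 10.8 copies in the L2C embryos. These ranges did not overlap, and all 10 E2C and 11 L2C blastomeres held at least 1 UMI. The log2 change was 1.63 (SE 0.41, limma adjusted p = 0.00049), below the limit at a pseudocount of 5 (0.85). Snhg12, which carries both C/D and H/ACA snoRNAs, was found at 0, 0.710, 1.56, 1.45 and 0 copies in E2C and at 0 to 8.22 copies in L2C, with a median of 3.25. Only the single-cell L2C embryo 1 was at 0, and the others lay above the E2C range. Its log2 change was 1.54 (SE 0.38, limma adjusted p = 0.000454), and the call was lost with DESeq2 (1.90) and at a pseudocount of 5 (0.67). Without L2C embryo 1 the same 4 genes were called, with log2 changes of 1.50 for Gas5, 2.32 for Snhg3, 1.64 for Snhg6 and 1.67 for Snhg12. Altogether 3 members (Gas5, Snhg3 and Snhg6) had every L2C embryo above every E2C embryo, which was true of 13.0% of all genes tested.

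Sister blastomeres of the same embryo, which share their zygote but were amplified apart, gave the spread within an embryo. For Gas5 the 5 L2C pairs held between 21.9 and 60.3 copies per cell, and E2C embryo 5 had 21.7 copies in one cell and 0 in the other. For Snhg3 the L2C pairs ranged more widely, with 10.4 and 0 copies in embryo 2 and 9.93 and 25.8 copies (6 and 11 UMIs) in embryo 4.

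The remaining hosts passed no call in this interval. Snhg1, of whose 8 records 5 carry both the C and the D box in this form, held between 0.543 and 5.90 copies in E2C and between 1.64 and 27.8 in L2C. The value of 27.8 is that of L2C embryo 1, where it stands for 5 UMIs, and the next highest was 9.79. Snhg5 held between 1.63 and 4.42 copies in E2C and between 0 and 18.7 in L2C, and Snhg8 between 0 and 5.30 and between 1.61 and 8.28. Their log2 changes were 0.64 for Snhg1, 0.67 for Snhg5 and 0.62 for Snhg8, with SEs of 0.43, 0.42 and 0.45.

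**Figure D1:**
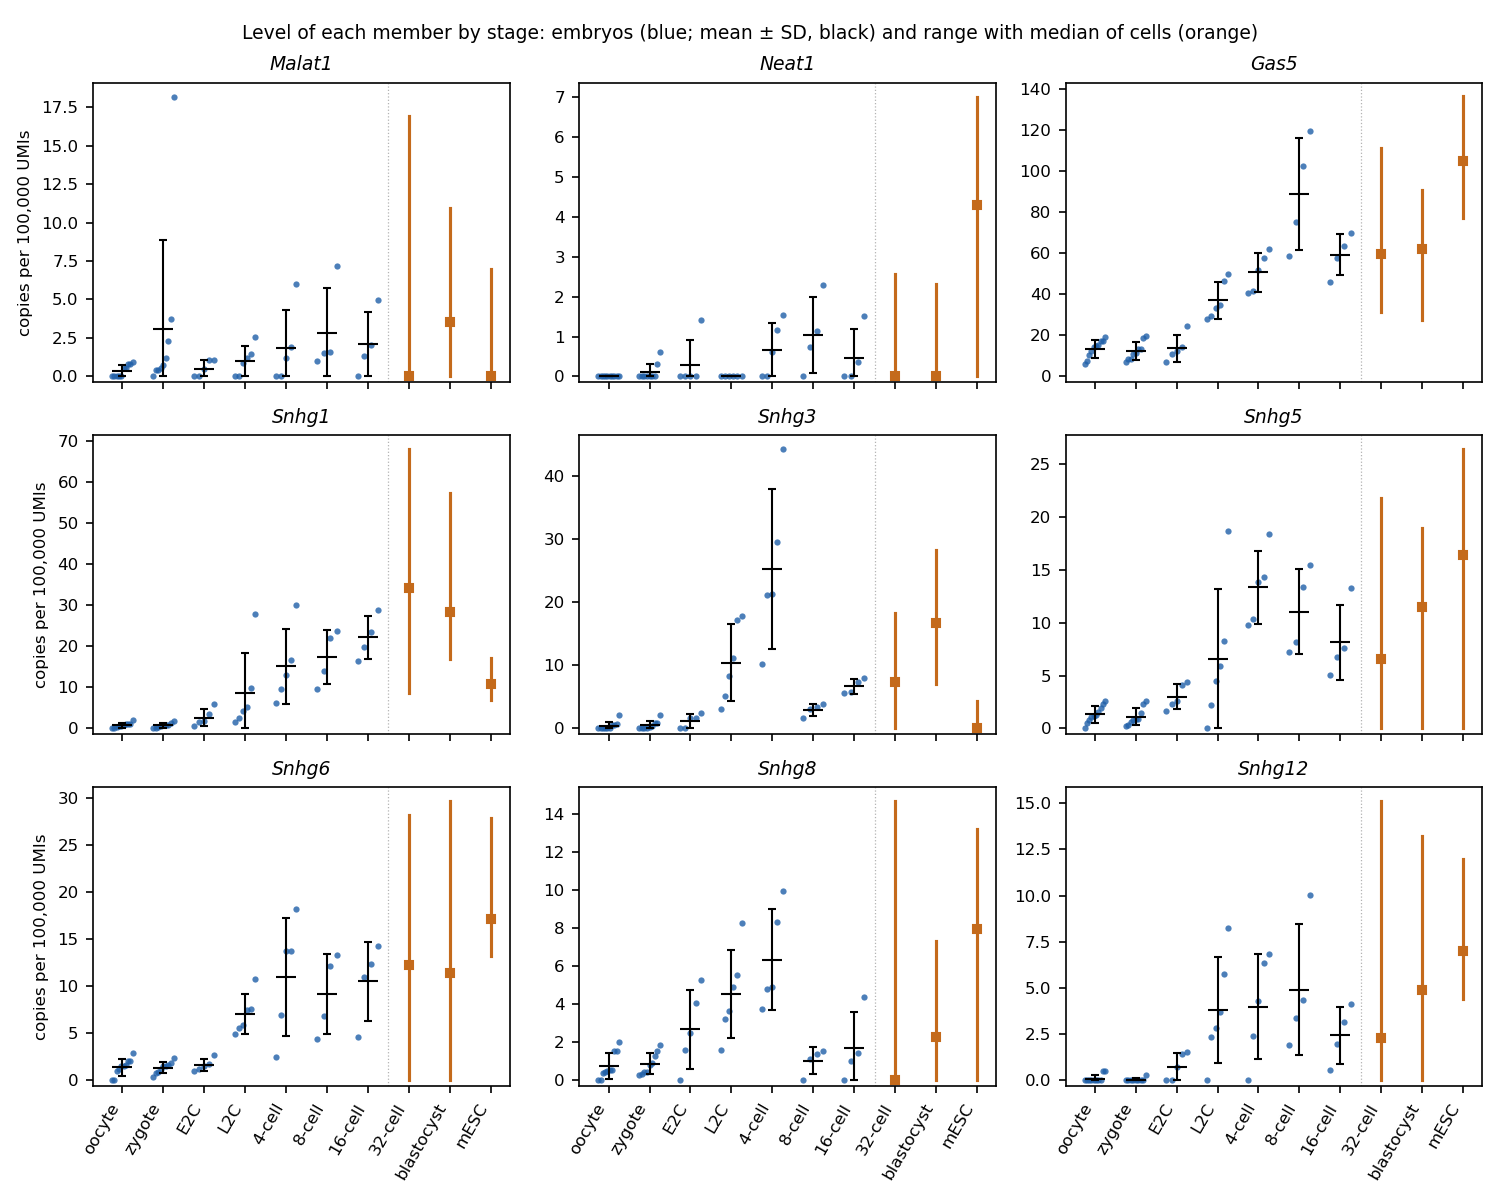
Level of each member in copies per 100,000 UMIs (vertical axes, linear, each with its own scale) by stage. Blue points are oocytes, zygotes and embryos, black marks their mean ± SD (lower bars stop at 0), and orange squares and bars the median and range over 32-cell, blastocyst and mESC cells. Gas5 lies below 25 copies up to E2C and above 27 copies in every L2C to 16-cell embryo, whereas Snhg3 peaks in 4-cell embryos, from 10.2 to 44.3 copies, and lies at 3.89 or less in 8-cell embryos.

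From the 4-cell to the 8-cell stage 2 members fell, Snhg3 and Snhg8, and none rose. Of all genes tested 10.5% were called lower and 15.0% in either direction. The median log2 change of the members was -0.07, against -0.16 over all genes tested. Snhg3 was found at 44.3, 29.6, 21.1, 10.2 and 21.3 copies in the 4-cell embryos and at 3.35, 3.89, 1.59 and 3.04 in the 8-cell embryos. The lowest 4-cell embryo held more than the highest 8-cell embryo. All 17 4-cell blastomeres held Snhg3, against 17 of 26 8-cell blastomeres, at about the same depth per cell. The log2 change was -2.31 (SE 0.48, limma adjusted p = 0.000345). Rcc1 changed by -0.27 (SE 0.41, limma adjusted p = 0.776).

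Snhg8, the host of Snora24, was found at 8.34, 4.90, 9.96, 4.80 and 3.78 copies in the 4-cell embryos. The 8-cell embryos held 1.40, 1.58, 0 and 1.13 copies, all below every 4-cell embryo. Its log2 change was -1.57 (SE 0.48, limma adjusted p = 0.0173), from 30 UMIs in 17 cells to 10 UMIs in 26 cells. Both members that fell thus had ranges that did not overlap, as had 6.14% of all genes tested in the same direction. At a pseudocount of 0.1 neither passed the call, with log2 changes of -2.59 and -2.24.

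The other hosts did not follow these genes. Gas5 stood at 62.0, 41.6, 40.5, 57.9 and 51.9 copies in the 4-cell embryos and at 120, 103, 75.1 and 58.5 in the 8-cell embryos, a log2 change of 0.74 (SE 0.38, limma adjusted p = 0.189). The 2 ranges overlapped only between 58.5 and 62.0 copies. With edgeR on the recovered UMIs the change was 1.11 and passed the call. Snhg1 changed by 0.40 (SE 0.46), Snhg5 by -0.17 (SE 0.45), Snhg6 by -0.11 (SE 0.44) and Snhg12 by -0.07 (SE 0.41) on the log2 scale. Whether the change of Snhg3 or Snhg8 differed from that of the other hosts was not tested.

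In the remaining intervals no member was called by limma, beside 3.24% of all genes from oocyte to zygote, 7.27% from zygote to E2C, 6.69% from L2C to 4-cell, and 3.36% in the step to 16 cells. Unadjusted p-values under 0.05 were found for 1, 4, 4 and 3 of the 9 members in these intervals, and for 25.7%, 26.9%, 15.8% and 11.1% of all genes tested. On the recovered UMIs both edgeR and DESeq2 called Malat1 higher from oocyte to zygote and Snhg3 higher from L2C to 4-cell. From zygote to E2C edgeR called 2 members higher and Malat1 lower, and DESeq2 called 3 higher. Neither tool called a member from 8-cell to 16-cell. From zygote to E2C the members under 0.05 were Snhg1 (0.95, SE 0.31), Snhg5 (0.95, SE 0.30), Snhg8 (0.84, SE 0.33) and Snhg12 (0.71, SE 0.28), all with higher values in E2C but short of the log2 limit or the p limit. From L2C to 4-cell the largest log2 changes were 1.23 for Snhg1 (SE 0.48), 1.18 for Snhg3 (SE 0.51) and 1.16 for Snhg5 (SE 0.47). Snhg1 was found at 13.0, 30.1, 9.49, 16.6 and 6.28 copies in the 4-cell embryos, and without L2C embryo 1 its change of 1.36 (SE 0.48, limma adjusted p = 0.114) passed the call. From 8-cell to 16-cell, Snhg3 held 7.98, 7.34, 5.57 and 5.75 copies in the 16-cell embryos, all above the 8-cell embryos, but its log2 change of 0.96 (SE 0.45, limma adjusted p = 0.395) stayed below the limit. It was the only member without overlap there, beside 1.84% of all genes tested in that direction.

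**Figure D2:**
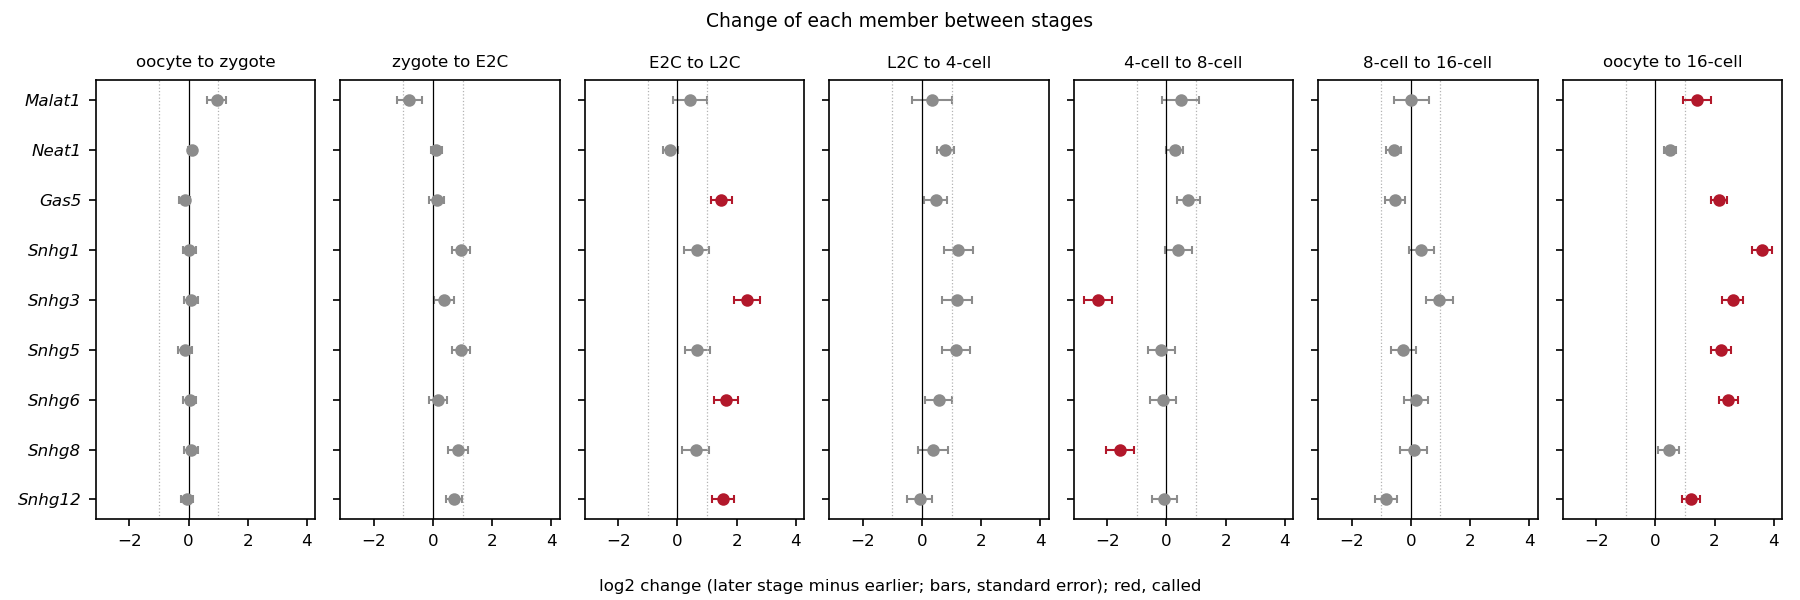
Log2 change of each member between consecutive stages and from oocyte to 16-cell (points, later stage minus earlier; bars, SE; 1 panel per comparison; dotted lines at -1 and 1). Red points passed the call: 4 members from E2C to L2C and 7 from oocyte to 16-cell lie to the right, and Snhg3 and Snhg8 from 4-cell to 8-cell lie to the left.

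Over the whole period, from oocyte to 16-cell, 7 of the 9 members rose and none fell. Of all genes tested 26.8% were called higher and 50.8% in either direction, and the median log2 change was 2.15 over the members and 0.039 over all genes tested. Snhg1 had the largest change, 3.60 (SE 0.34, limma adjusted p = 2.2e-14). Its 10 oocytes held between 0 and 2.03 copies, with a median of 0.697, and its 16-cell embryos 16.3, 23.5, 28.8 and 19.9, so that the groups stood apart. The mean rose from 0.771 ± 0.608 (SD, n = 10) to 22.1 ± 5.33 copies (SD, n = 4). The 8-cell embryos held 14.1, 22.1, 23.7 and 9.66 copies, a range that overlaps that of the 16-cell embryos.

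Gas5 held between 6.17 and 19.1 copies in oocytes (median 14.6) and 63.4, 69.9, 46.2 and 57.5 in the 16-cell embryos, a log2 change of 2.15 (SE 0.28, limma adjusted p = 7.65e-10). Snhg6 held between 0 and 2.92 copies (median 1.56) and 12.4, 14.3, 11.0 and 4.60, with a change of 2.46 (SE 0.33). Snhg5 held between 0 and 2.57 (median 1.22) and 13.2, 6.78, 5.02 and 7.63, with a change of 2.23 (SE 0.34). For these hosts, as for Snhg3 (2.62, SE 0.36), every 16-cell embryo lay above every oocyte. Snhg12 also showed no overlap, but narrowly: its highest oocyte held 0.508 copies and its lowest 16-cell embryo 0.543, with a log2 change of 1.20 (SE 0.31). Its call was lost without 16-cell embryo 4 (0.98), with the median over an embryo's cells (0.41) and at a pseudocount of 5 (0.38). In all 6 members had no overlap, a pattern found in 20.2% of all genes tested in this direction. Snhg8 did not pass the call (0.45, SE 0.36, limma adjusted p = 0.278), with 1.05, 4.41, 1.45 and 0 copies in 16-cell embryos after its higher values in L2C and 4-cell embryos.

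Malat1 was low at every stage in the polyA cDNA read here. Its listed isoforms are pieces of the gene, so that the level of the whole RNA was not measured. Malat1 held between 0 and 0.928 copies in oocytes (median 0.257), and 8 UMIs were read from all 10. The 9 zygotes held 18.2 copies in zygote 1 and between 0 and 3.72 in the others, with a median of 0.721. Zygote 1 alone gave 40 of the 70 Malat1 UMIs of the zygotes, and the log2 change from oocyte to zygote was 0.95 (SE 0.31, limma adjusted p = 0.0297) with it and 0.52 (SE 0.26, limma adjusted p = 0.200) without it. The 4 zygotes of sequencing run 1, zygote 1 among them, averaged 4.85 copies, the 2 of run 2 averaged 2.46 and the 3 of run 3 averaged 1.05, and run as a term of the fit gave no member a call.

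In later embryos Malat1 was uneven among embryos of a stage. It was found at 6.03, 0, 0, 1.17 and 1.93 copies in the 4-cell embryos, at 7.16, 1.49, 1.59 and 1.02 in the 8-cell embryos and at 4.95, 2.01, 0 and 1.33 in the 16-cell embryos. The oocyte and 16-cell ranges overlapped at 0. The log2 change from oocyte to 16-cell was 1.41 (SE 0.47, limma adjusted p = 0.00718), and it lost the call without 16-cell embryo 1 (0.50) and without 16-cell embryo 2 (1.09). The call was also lost with DESeq2, with the median over an embryo's cells (0.42), without array weights (0.96), without the filter on low values and at pseudocounts of 0.1 and 5. Among the 13 blastocyst cells the range was 0 to 11.0 copies with a median of 3.54, and 11 of them held at least 1 Malat1 UMI. The medians of the 32-cell and mESC cells were 0.

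Neat1 was near the limit of detection in the polyA cDNA read here, with 38 UMIs in the 161 cells. Its listed isoforms lie within the first 3181 bases of the 20771-base gene, so that the level of the whole RNA was not measured. No Neat1 UMI was read in the 10 oocytes or the 6 L2C embryos. For the RNA that this cDNA can show, this allows at most 0.148 and 0.500 copies over those stages (3 UMIs of the total). It was found at 1.54, 0, 0, 1.15 and 0.622 copies in the 4-cell embryos, at 1.13, 2.30, 0 and 0.730 in the 8-cell embryos and at 0.350, 1.51, 0 and 0 in the 16-cell embryos. No comparison was called by limma as fitted here, the closest being L2C to 4-cell (unadjusted p = 0.00925, adjusted p = 0.132). At a pseudocount of 0.1 that interval and oocyte to 16-cell passed the call, the latter also with edgeR, and the values of most embryos rest on 1 or a few UMIs. In the 5 mESC Neat1 had its highest median, 4.30 copies, from 3 UMIs in 3 of the cells. Intervals and limits given here cover counting error only.

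The cells past the 16-cell stage split the hosts further, as a description. Snhg3 ranged from 7.08 to 28.3 copies in the 13 blastocyst cells, with a median of 16.8 and UMIs in every cell, while in mESC 1 of 5 cells held a single UMI. Snhg1 had medians of 34.1 copies in 32-cell and 28.2 in blastocyst cells against 10.9 in mESC. Gas5 went the other way, with medians of 59.7, 62.3 and 105 copies. Snhg8 had medians of 0 and 2.29 copies in 32-cell and blastocyst cells and had a median of 7.99 copies in mESC, and Snhg6 (12.3, 11.4 and 17.2) and Snhg5 (6.52, 11.4 and 16.4) had their highest median there too. Snhg12 moved from 2.29 to 4.88 and 7.01 copies. Depth per cell was lowest in mESC, with a median of 22726 UMIs.

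Full-length reads showed which RNAs lay behind these levels. The listed isoforms hold 69.4% of the UMIs of all genes, and isoform copies are on another scale than gene copies. An isoform can thus show more copies than its gene. Of the 112 isoforms of the members, 42 passed the filter on low values, 22 of them from Gas5, 6 from Snhg1 and none from Neat1. By the same call applied to isoforms, 1 was called from oocyte to zygote and 1 from zygote to E2C, beside 1.48% and 5.18% of the 29409 isoforms tested. From E2C to L2C 6 rose and none fell (26.0% of all called in either direction), from L2C to 4-cell 1 rose and 1 fell (4.29%), from 4-cell to 8-cell 5 rose and 3 fell (7.93%), and from 8-cell to 16-cell 2 fell (1.97%). From oocyte to 16-cell 14 rose and none fell, beside 31.2% of all isoforms.

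The Malat1 molecules in the isoform table were 4 unspliced pieces of the gene, which spans 6983 bases. PB.37851.18 covers 755 bases at the 5′ end, PB.37851.11 covers 1420 bases in the middle and PB.37851.1 and PB.37851.5 cover 1507 and 393 bases that end 1 base inside the annotated 3′ end. No isoform spans the whole gene. The 5′ piece gave 38 of the 41 isoform UMIs of zygotes and was absent from E2C and 4-cell embryos, where 0 of 1 and 0 of 8 isoform UMIs were of this kind. The 3′ pieces gave 8 of 8 in 4-cell embryos and 13 of 21 in 16-cell embryos. The 5′ piece held a median of 0.649 copies in zygotes (range 0 to 14.0) and 0 to 0.545 in oocytes, and was called higher in zygotes (log2 change 1.02, SE 0.27, limma adjusted p = 0.0155) and lower in E2C (limma adjusted p = 0.081). Without zygote 1 both calls were lost, with log2 changes of 0.65 and -0.74. The shift in isoform shares from 4-cell to 8-cell did not pass the test of shares over all genes (limma adjusted p = 0.282). The 2 Neat1 isoforms, of 1741 and 3181 bases, lie within the first 3181 bases of the 20771-base gene.

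**Figure D3:**
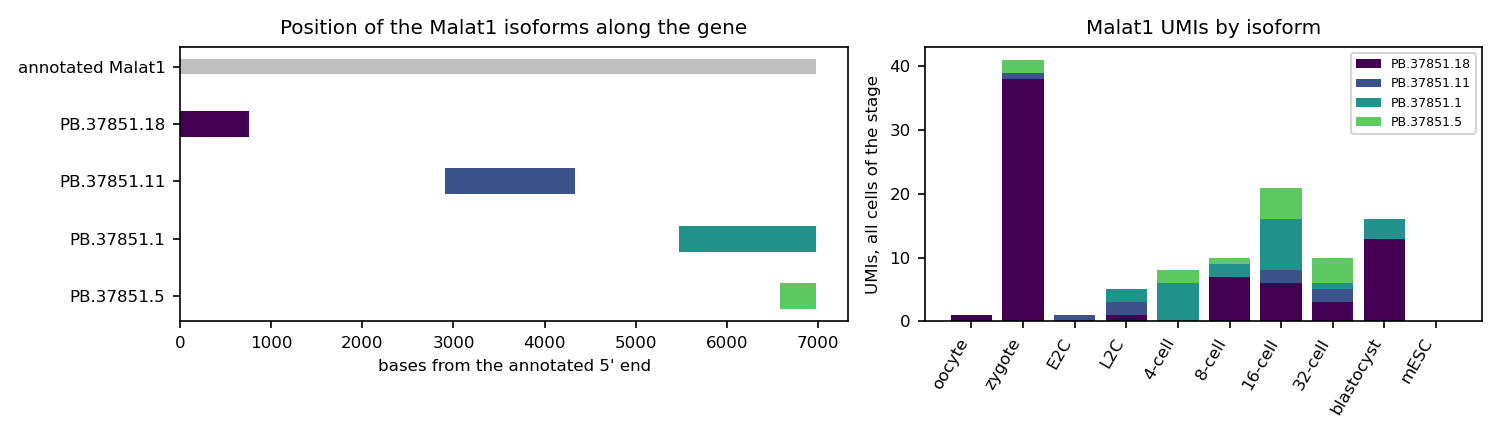
Left, position of the 4 Malat1 isoforms along the gene in bases from the annotated 5′ end. Right, UMIs of each isoform summed over all cells of a stage (stacked bars from 0). The 5′ piece PB.37851.18 makes up 38 of 41 zygote UMIs, and pieces at the 3′ end make up all 8 of the 4-cell stage.

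Snhg3 was made up almost wholly of 1 molecule. PB.53834.56, a 3-exon RNA of 722 bases, held 312 of the 350 isoform UMIs of Snhg3 (89.1%). It rose from E2C (0 to 3.19 copies) to L2C (0 to 21.0, log2 change 2.04, SE 0.54, limma adjusted p = 0.0021) and fell from 4-cell (6.26 to 43.4) to 8-cell embryos (0.459 to 2.57, -2.78, SE 0.54, limma adjusted p = 0.000292), without overlap in the second case. Snhg8 was carried by PB.49304.1, a 3-exon RNA of 755 bases with 85.1% of its isoform UMIs, which fell from 4-cell to 8-cell as well (-1.63, SE 0.52, limma adjusted p = 0.0381). Snhg6 was carried by PB.169.1, a 4-exon RNA of 583 bases with 79.6%, which rose from E2C to L2C (1.58, SE 0.49, limma adjusted p = 0.00953). In Snhg12, PB.53826.8, a 5-exon RNA of 1024 bases, held 54.8% and rose in the same interval (1.30, SE 0.42, limma adjusted p = 0.013).

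Snhg1 was shared more evenly. PB.38072.1, a 10-exon RNA of 1128 bases, held 27.8% of its isoform UMIs and PB.38072.6, a 9-exon RNA of 576 bases, held 26.5%. The shorter form was scarce early, with 0 to 1.84 copies in the 4-cell embryos, and rose in the 8-cell embryos to 1.77 to 8.55 copies (log2 change 1.29, SE 0.39, limma adjusted p = 0.0252), while the gene as a whole passed no call. It gave 2 UMIs in 4-cell, 59 in 16-cell and 66 in 32-cell cells, against 18, 52 and 23 of the longer form. In blastocyst cells the order was the other way, with 26 UMIs of the shorter form and 32 of the longer. Part of the difference in length lies in the listed starts, 8722955 for the longer and 8723461 for the shorter form. In Snhg5, the host of Snord50a and Snord50b, PB.77237.1 (5 exons, 1084 bases) held 51.3% and PB.77237.3 (6 exons, 738 bases) 21.2% of the isoform UMIs, and no Snhg5 isoform was called between adjacent stages.

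Gas5 was split among 61 isoforms, of which 2 led at most stages. PB.4292.88, with 12 exons and 824 bases, held 31.0% of its isoform UMIs, and PB.4292.89, with 685 bases and without exon 7, held 27.3%. In L2C embryos neither led. There PB.4292.94, which starts within 10 bases of the downstream RefSeq start and skips exons 4 and 7, gave 51 of 185 isoform UMIs, against 2 of 235 in oocytes and 6 of 105 in E2C. It was found at 0 to 3.01 copies in E2C and 3.80 to 17.5 in L2C embryos (medians 0.780 and 13.0), ranges that do not overlap, and its log2 change was 2.54 (SE 0.44, limma adjusted p = 4e-06).

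From 4-cell to 8-cell the long form PB.4292.88 rose from 0 to 13.6 copies (median 11.5) to 17.3 to 51.2 (median 40.4), with a log2 change of 2.00 (SE 0.54, limma adjusted p = 0.0113), an interval in which the gene as a whole passed no call. PB.4292.110, a 9-exon form that stops in exon 9 of PB.4292.88, was at 0 in all 5 4-cell embryos, at 1.27 to 3.31 copies in the 8-cell embryos and at 0 to 1.95 in the 16-cell embryos, and was called in both intervals (limma adjusted p = 1.2e-06 and 0.00211). As shares of the gene's isoforms these shifts did not pass: the lowest value for Gas5 was that of E2C to L2C (limma adjusted p = 0.137). A shift of isoform shares was called for no member in any of the 6 intervals. The share of tested genes with such a call was 0.017%, 1.33%, 8.88%, 0.088%, 0.0726% and 0.0% in developmental order. Of the 39 tests of members, 4 had an unadjusted p under 0.05.

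The first exon of Gas5 differed with stage, as a description made after its values were seen. The isoforms PB.4292.74 and PB.4292.73 share an upstream first exon, and the commoner of them, PB.4292.74, starts within 10 bases of the upstream RefSeq start at position 161034601. PB.4292.81 also starts there, with another end of its first exon, and is not counted with them. It gave 2 UMIs each in L2C, 4-cell and 32-cell cells. They made up 8.51% of Gas5 isoform UMIs in oocytes (20 of 235, 95% exact interval 5.28 to 12.8%), 6.38% in zygotes (15 of 235) and 9.52% in E2C (10 of 105, 4.66 to 16.8%). In L2C they were 1.08% (2 of 185, 0.131 to 3.85%), in 4-cell embryos 0 of 239, which allows up to 1.53%, and at most 0.331% in any later group of cells. By contrast, 32 of the 61 isoforms have a listed start within 10 bases of the downstream start at 161035166. This start lies at the pyrimidine run shown above, and these isoforms give 625 of 2867 UMIs.

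**Figure D4:**
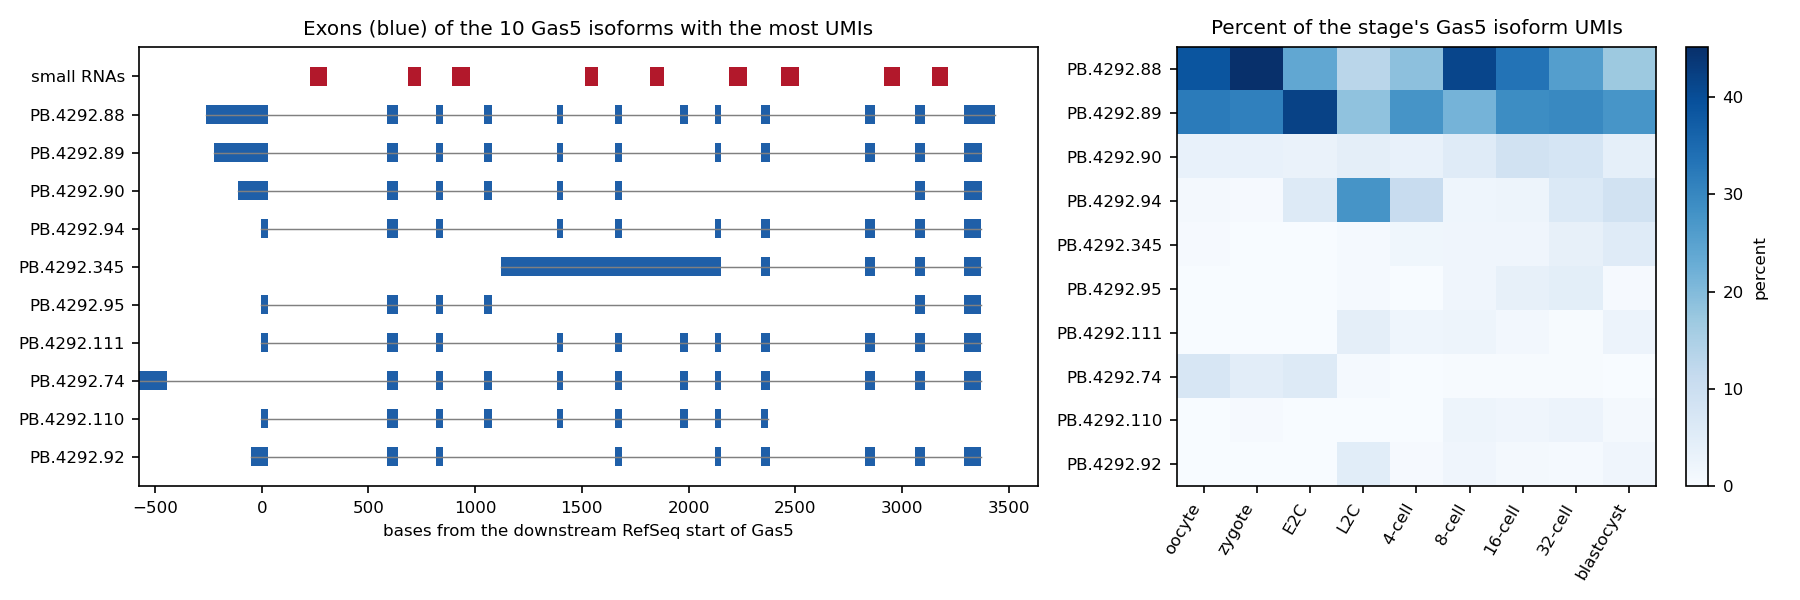
Left, exons of the 10 Gas5 isoforms with the most UMIs (blue) and the annotated snoRNA records (red) in bases from the downstream RefSeq start. Right, percent of the Gas5 isoform UMIs of each stage held by each isoform (colour scale from 0). PB.4292.94 stands out in L2C, with 51 of 185 UMIs, and the upstream-start form PB.4292.74 has its darkest cells from oocyte to E2C.

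Some isoforms kept a whole snoRNA record in an exon, as an unspliced or partly spliced host does. In Gas5 the record Mir5117, annotated as a snoRNA despite its microRNA name, was counted as well. It was the only record in 2 isoforms with 17 and 8 UMIs. For Gas5 this share was 7.66% in oocytes (18 of 235 UMIs), 5.96% in zygotes, 6.67% in E2C and 11.9% in L2C. It was 29.3% in 4-cell embryos (70 of 239, 95% exact interval 23.6 to 35.5%), with embryo values of 31.5, 45.5, 19, 33.8 and 23.3%. The 8-cell embryos had 13.6, 12.7, 7.69 and 19.7%, of which only the highest lay inside the 4-cell range. The share was 12.1% in 16-cell, 15.0% in 32-cell and 27.4% in blastocyst cells. For Snhg1 it was 39.5% in 4-cell embryos (17 of 43, 95% exact interval 25 to 55.6%) and 21.6% in 16-cell embryos (38 of 176, 15.8 to 28.4%), intervals that overlap, and 35.3%, 32.2% and 38.5% in E2C, 32-cell and blastocyst cells. PB.4292.345, the commonest of these RNAs, runs unspliced through Gm23212 and Snord78 and gave 57 UMIs.

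Pooled over all stages the share has values that were not tested against each other, since the hosts drew their UMIs from different stages. It was 29.1% in Snhg1 (193 of 663 UMIs), 29.0% in Snhg12 (36 of 124), 14.9% in Gas5 (427 of 2867) and 14.9% in Snhg8 (27 of 181). It was 4.15% in Snhg5 and 1.12% in Snhg6. In Snhg3 it was 0 of 350 UMIs, which allows at most 1.05% (exact interval), so that no listed isoform held a whole Snora73 copy in an exon. These shares count only isoforms that the authors kept, seen in at least 5 cells.

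**Figure D5:**
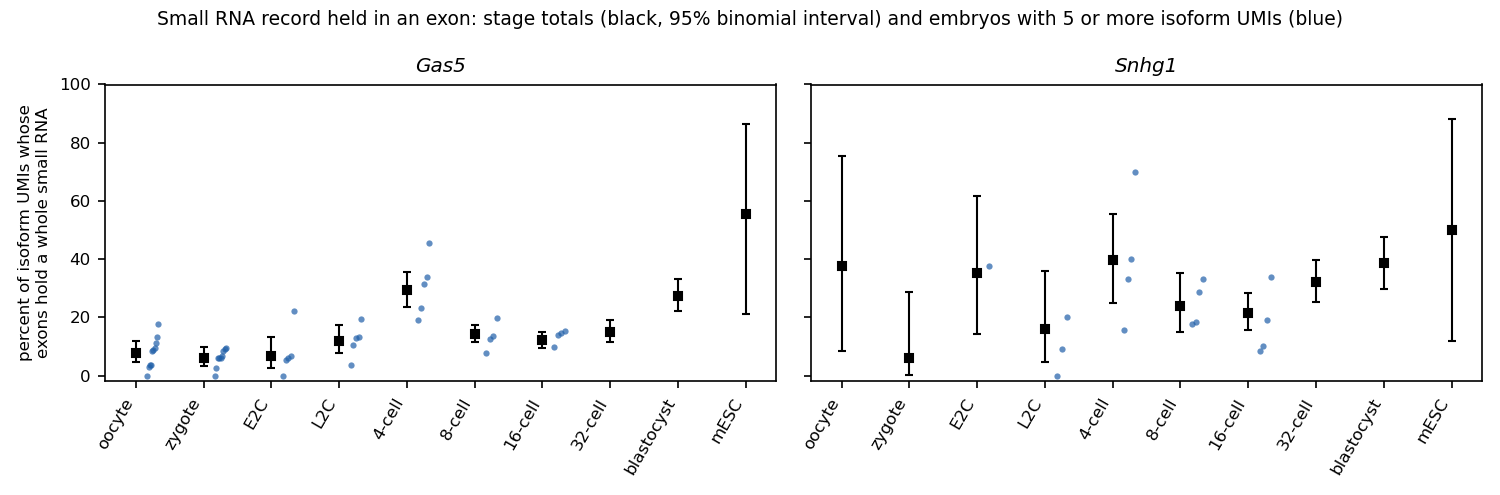
Percent of isoform UMIs whose exons hold a whole annotated snoRNA record (for Gas5, Mir5117 included), for Gas5 and Snhg1, by stage (vertical axes from 0 to 100%). Black squares are stage totals with the 95% exact binomial interval and blue points are embryos with 5 or more isoform UMIs. For Gas5 the 4-cell embryos lie between 19 and 45.5% and the 16-cell embryos between 9.85 and 15.4%.

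The listed isoforms covered 78.9% of the Gas5 UMIs of the gene table, with 76.9 to 84.8% in each stage from oocyte to blastocyst. In mESC they covered 8.41% (9 of 107 UMIs, 95% exact interval 3.92 to 15.4%), while all genes together had 82.9% there. The Gas5 level in mESC thus rests mostly on molecules outside the isoform table, and what these molecules are was not tested.

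Intact oocytes were also set beside oocytes cut into parts. The labels tie no parts to 1 oocyte, so each part was treated as a sample, though parts may share an oocyte. In a further run 4 intact oocytes, 6 parts of 1/2 and 6 parts of 1/4 of an oocyte were read as whole UMI counts. Gas5 gave 5, 6, 3 and 3 UMIs in the intact oocytes, and 2 to 9 in the 1/2 and 2 to 8 in the 1/4 parts. As copies per 100,000 UMIs the summed Gas5 values were 1.89, 2.84 and 2.30 in intact oocytes, 1/2 and 1/4 parts. They lie below the 13.5 ± 4.33 (SD, n = 10) of the oocytes described above, which come from other runs and a table made separately. The measure differs too, since the values of this run are summed over listed isoforms and 13.5 is a gene value. Counted by listed isoforms, the oocytes described above held 235 Gas5 UMIs of 1345224. This gap was not tested. Snhg6 gave 1, 0, 0 and 2 in the intact oocytes, and 0 to 3 and 0 to 2 in the parts. The samples overlapped in both genes. Malat1, Snhg1, Snhg3, Snhg5 and Snhg8 gave at most 3 UMIs in all for any kind of sample and Neat1 and Snhg12 none, so that no member passed edgeR's filter on low counts and no test of a member was made at these settings. Of the 2767 genes tested 0.0% were called in either comparison (0 genes at an adjusted p under 0.05), with 185 and 255 at an unadjusted p under 0.05, and DESeq2 called 0 and 5.

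The pattern over the 43 oocytes, zygotes and embryos was compared with that of all tested genes by Pearson's r of log2(copies + 1), which is a description, since these genes share libraries, depth and the rise at genome activation. Most like Gas5 were Rpl38 (0.95), Rpl23a (0.95) and Rpl35 (0.95), and among those most like Snhg1 were Rps4x (0.91) and Rpl19 (0.90), all genes of ribosomal proteins. The genes most like Snhg3 were Rrp9, a U3 snoRNA-binding protein (0.90), Gabpa (0.89) and Rbm10 (0.89). Snhg6 was most like Tead4 (0.90), Snhg12 like Gpat3 (0.88), Snhg5 like Adi1 (0.87) and Snhg8 like Gm5788 (0.82). The nuclear RNAs had lower values, with Cbr2 (0.76) nearest to Neat1 and Mtmr10 (0.65) nearest to Malat1. Among the members themselves r was highest for Gas5 and Snhg1 (0.85) and lowest for Malat1 and Snhg8 (0.11), over the same 43 points.

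Genes of the same pathways, taken from lists of 128 genes in all, give the setting of these changes. Of all genes tested 25.6% were called higher and 48.4% in either direction from E2C to L2C. From 4-cell to 8-cell 10.5% were called lower and 15.0% in either direction, with 522 of 11682 called higher. Of 13 other noncoding snoRNA hosts tested, 9 rose and none fell from E2C to L2C, with a median log2 change of 1.38, and 4 fell and none rose from 4-cell to 8-cell, with a median of -0.49. Snhg15 moved from 1.27 ± 0.421 to 21.6 ± 11.3 copies in the first interval (log2 change 3.27, SE 0.36), and Snhg20 from 10.8 ± 6.65 to 0.305 ± 0.609 copies in the second (-3.28, SE 0.43), as did Dancr (-2.43) and Snhg9 (-2.38). Of 31 protein-coding snoRNA hosts 24 rose and 3 fell from E2C to L2C, but 9 rose and none fell from 4-cell to 8-cell. Rpl21 and Rpl23 were among those that rose in the first interval, with log2 changes of 4.20 and 3.84, and Hspa8, Eef1b2 and Rack1 among those in the second, with 2.06, 1.88 and 1.22. Whether the coding and noncoding hosts differed from each other was not tested.

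Of 14 proteins of snoRNA particles and their assembly factors 11 rose and none fell from E2C to L2C, led by Nhp2 (4.50, SE 0.37), a core protein of H/ACA particles, Nop56 (3.58, SE 0.35), a core protein of C/D particles, and Snu13 (2.45, SE 0.25), which binds C/D snoRNAs. From 4-cell to 8-cell only Snu13 fell among them (-1.26, SE 0.27), and none rose. Of 21 paraspeckle proteins 6 rose and 3 fell from E2C to L2C, among them Nudt21 (2.92) and Tardbp (-1.58). In that interval 25.6% of all genes tested were called higher and 48.4% in either direction. Neat1 was read in none of the L2C embryos, and its listed isoforms lie within the first 3181 bases of the 20771-base gene. No listed isoform covers the rest of that gene. Of 19 nuclear speckle proteins 8 rose and 1 fell, with Srsf6 (3.25) and Srsf3 (-2.10) as examples, and Malat1 had a log2 change of 0.42 (SE 0.59). Of 15 factors of nonsense-mediated decay 6 rose and 2 fell, with Rbm8a at 2.86 and Magohb at -3.01. Of 7 other long noncoding RNAs 1 rose and 2 fell.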

How the data were processed

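The members and the lists of related genes were chosen with earlier results of these data known. The authors used SMRT-Link for consensus reads, scISA-Tools for the cell barcodes and UMIs, minimap2 for mapping to mm10, and cDNA_Cupcake and SQANTI3 for isoforms, of which those in fewer than 5 cells were dropped. Gene and isoform values of the CPM kind (copies per 100,000 UMIs of a cell) were used as deposited by the authors, each on its own scale. The E2C, L2C and 4-cell columns, recorded as a score, hold the same unit as deposited by the authors. Every value above 0 (100%) was a whole number of UMIs within 0.1, and the recovered UMIs served the count models. For the split oocytes the deposited table holds UMI counts per isoform, summed here by gene.

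Groups follow the stage and embryo in the cell names, since the 4 deposited samples are sequencing runs. Embryo means of log2(copies + 1) were fitted for 7 stages with limma 3.58.1 (trend, array weights, R 4.3.3), for genes or isoforms with at least 1 copy in at least 4 embryos. Isoform shares were tested on the arcsine square root scale and joined per gene by Simes' method. Split oocytes were tested with edgeR 4.0.16, and DESeq2 1.42.0 was an alternative. P-values measure the spread between embryos, and nothing states that embryos of a stage came from different females. The sequencing run was assigned for the 19 oocytes and zygotes only. Comparisons with later stages were not adjusted for run, so that stage and run cannot be told apart in them. Depth was 4985 to 389775 UMIs per cell (median 38914). The tables name cells and not barcodes, so that barcodes shared between runs could not be counted. The fits were tested on simulated data. Named isoforms are the leading ones of a member, with at least 10% of its isoform UMIs at a stage, except PB.4292.73, PB.4292.74, PB.4292.81 and PB.4292.110, which were chosen after their values were seen. Named genes of other lists are at most the 3 called with the smallest p, and the genes most like a member the 3 with the highest r, of which some are not reported here. Sequences are from RefSeq (GRCm38.p6) and GENCODE vM21, matched by symbol.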

Additional observations from a re-analysis of the deposited data

Results flagged for a closer look

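Single embryos stood apart from the others of their stage by Dixon's test of the gap to the nearest value in 8 of the 61 groups of 4 to 10 samples tested, where chance flags about 1 in 20 groups, a rate that does not hold for groups mostly at 0. Where only 1 embryo held the RNA (Neat1 in E2C, Snhg12 in zygotes) the gap is the whole range by construction. For Malat1 these were zygote 1 with 18.2 copies per 100,000 UMIs, against 3.72 in the next highest zygote, and 8-cell embryo 1 with 7.16 copies, against 1.59. Zygote 1 gave 40 Malat1 UMIs, and the results that rest on it are given with and without it above. For Neat1 they were zygote 6 with 0.62 copies, against 0.302, and E2C embryo 2 with 1.42 copies, the only E2C embryo in which it was read. Snhg1 reached 27.8 copies in L2C embryo 1, against 9.79 in the next highest, from 5 UMIs in a single cell of 17971 UMIs. Snhg3 reached 2.07 copies in oocyte 4, against 0.782, and 2.06 copies in zygote 4, against 0.93. Snhg12 was read at 0.31 copies in zygote 6 and in no other zygote. Outside Malat1 in zygote 1 and 8-cell embryo 1, these values rest on few UMIs.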

How the results depend on the processing

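No called change of a member reversed under the 29 alternatives fitted for it. Of 377 repeats of the 13 called changes 358 kept the call and 19 lost it, 3 of these in leave-outs. Most repeats left out 1 embryo, and many of those left out an embryo of neither stage compared, which can hardly change the call. The share that kept the call is thus no measure of how firm the calls are. From E2C to L2C 4 members were called higher, but 2 with DESeq2 on the recovered UMIs and 2 at a pseudocount of 5, and edgeR called 3. From 4-cell to 8-cell 2 were called lower, but 0 at a pseudocount of 0.1 and 1 at a pseudocount of 5, and edgeR called 1 higher. In intervals with no call, 1 member was called higher from oocyte to zygote by DESeq2, by edgeR and at a pseudocount of 0.1. From zygote to E2C 3 were called higher by DESeq2, 2 by edgeR, which also called 1 lower, and 3 at a pseudocount of 0.1. From L2C to 4-cell 1 was called higher by DESeq2, by edgeR and at a pseudocount of 0.1, and 2 without array weights. From 8-cell to 16-cell 1 was called lower with the median over an embryo's cells. Embryos of the E2C, 4-cell, 8-cell and 16-cell stages were left out 1 at a time (18 fits), and no oocyte was left out. These fits gave 0 to 3 members called higher from zygote to E2C (3 without E2C embryo 1, 2 without embryo 4 or 5). They gave 0 to 1 from L2C to 4-cell (1 without 4-cell embryo 4 or 5). From 8-cell to 16-cell 0 to 1 were called lower (1 without 16-cell embryo 4 or 8-cell embryo 1). Leave-outs of zygote 1 and L2C embryo 1, the only ones at those stages, were added after the data were seen. Without zygote 1, 1 member was called higher from zygote to E2C, and no member isoform was called from oocyte to zygote (0 in place of 1) or from zygote to E2C (0). Without L2C embryo 1, 1 member was called higher from L2C to 4-cell. Over the leave-outs the isoforms called numbered 0 to 1 (oocyte to zygote), 0 to 2 (zygote to E2C), 1 to 3 (L2C to 4-cell) and 1 to 5 (8-cell to 16-cell, with 5 without 16-cell embryo 1). At a pseudocount of 0.1 they numbered 3 (zygote to E2C), 4 (8-cell to 16-cell) and 23 (oocyte to 16-cell, in place of 14), and 9 in the last without array weights. The causes were not tested.

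Over all genes a pseudocount of 5 moved the counts from 379 to 53 (oocyte to zygote), 849 to 168, 5654 to 2657, 782 to 138, 1749 to 544, 393 to 47 and 5938 to 2762 (oocyte to 16-cell). From oocyte to zygote edgeR called 781 genes, a pseudocount of 0.1 called 1325 and the fit with run as a term 187. From L2C to 4-cell DESeq2 called 487, the fit without array weights 1183, and the fits without 4-cell embryo 4 and without embryo 5 called 430 and 477. From 8-cell to 16-cell DESeq2 called 220. No paired analysis was possible because embryos of different stages are different embryos. Depth limits Neat1, Malat1, Snhg8 and Snhg12 most, since 1 UMI stands for about 3.08 copies in a median 4-cell blastomere.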
